A study of Homo sapiens with 20 samples.

Results

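Cytosolic ribosomal protein genes were followed through 4 experiments in HepG2, a human hepatocellular carcinoma cell line. Members were taken by symbol: RPL or RPS with a number and at most an A, X or L after it, plus RPLP0, RPLP1, RPLP2 and RPSA, with pseudogenes and S6 kinases left out. The gene table of the FUBP1 RNA immunoprecipitation (RIP) held 81 such genes of 28278. The tables of skipped exon events held 75 of 19792 events (43 genes) for FUBP1 depletion, 91 of 32990 (48 genes) for U3 depletion and 32 of 7065 (26 genes) for FBL depletion. Together these gave 117 distinct events in 57 members, with 22 members present in every event table.

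FUBP1, a single-stranded nucleic acid-binding protein that acts in splicing, was depleted with an siRNA for 48 hours (siFUBP1 against siCtrl2, 3 libraries each). The box C/D small nucleolar RNA (snoRNA) U3, which is needed to cleave the precursor of 18S ribosomal RNA, was depleted for 72 hours with an antisense oligonucleotide (U3 ASO against GFP ASO, 3 libraries each). FBL (fibrillarin), the 2′-O-methyltransferase of box C/D particles, was depleted with an siRNA for 48 hours, and both the input RNA and the RNA bound to FUBP1 were sequenced, from 2 libraries each in siFBL and in siCtrl cells. All groups were transfected cells of 1 line, and no library entered more than 1 splicing comparison. The study's methods call the libraries of a group biological replicates. The p-values for the junction reads of a gene measure the spread between them. Those for exon events rest on a dispersion estimated over all events, not on the spread of the event's own libraries.

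Ribosomal proteins clothe the ribosomal RNA of the large (RPL) and small (RPS) subunits, and one copy of nearly every protein goes into each ribosome. Their mRNAs are short, abundant and made from compact genes, many of which carry snoRNAs in their introns. Most begin with a 5′ terminal oligopyrimidine (TOP) tract, a C followed by an unbroken run of pyrimidines, through which their translation is controlled together. U3 and FBL act on the ribosomal RNA of the same particle.

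The first bases of 4 members are shown because the TOP tract is what most members share and one of the 4 lacks it. Each line runs from 10 bases before to 20 bases from a RefSeq start site (GRCh38.p14), with the pyrimidine run that begins at the start site in capitals. Where a gene had several listed starts, the start with the longest such run was used, here and in the shares below.
RPL31 (chr2:101002279-101002308, plus strand): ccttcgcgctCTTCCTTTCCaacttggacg
RPL13A (chr19:49487598-49487627, plus strand): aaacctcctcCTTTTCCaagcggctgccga
RPS24 (chr10:78033853-78033882, plus strand): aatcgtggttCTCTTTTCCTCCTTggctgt
RPS27L (chr15:63157458-63157487, minus strand): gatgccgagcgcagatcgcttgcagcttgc
RPS27L, a paralogue of RPS27 that p53 induces, had no such run. A start with C and then 4 bases that are each C or T was found in 46 of the 64 members with a RefSeq entry (71.9%), against 1404 of all 27305 genes (5.14%).

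The second sequence is the cassette exon of RPS24, a small subunit protein whose gene is mutated in Diamond-Blackfan anemia, because it was the only member exon that passed the splicing test. The window chr10:78040144-78040237 (hg38, plus strand) holds 60 bases of the upstream intron, the 22-base exon in capitals and 12 bases of the downstream intron.
RPS24 exon: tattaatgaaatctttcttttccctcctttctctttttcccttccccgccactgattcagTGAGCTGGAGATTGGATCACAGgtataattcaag
In GENCODE release 44 the exon opens with the stop codon of the transcript RPS24-202, which encodes 130 residues. Where the exon is skipped (RPS24-214), reading continues into the last exon and the protein has 133 residues. Of the 60 bases before the exon, 27 were U and 20 were C, so that 78.3% were pyrimidines. A U share of 45% or more preceded 23.8% of the 27804 distinct exons in the U3 event table, and a pyrimidine share as high preceded 1.91%.

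Depth differed among the tables. Junction reads summed over all listed events ran from 2693397 to 4474350 per library for siFUBP1, from 11249641 to 13321799 for U3 and from 910779 to 1142189 for FBL. FUBP1 itself fell to 14.9% of its control junction reads after siFUBP1, from 45.2, 56.1 and 50.3 RPM (junction reads per 1000000 junction reads of the library) to 8.42, 10.1 and 4.08 RPM (adjusted p = 9.2e-05, limma). FBL had no skipped exon event. Its deposited mean normalized counts were 1034 in siCtrl and 164 in siFBL, 2 columns that share no fixed scale, and U3 RNA was not measured in these tables. The 12 hepatocyte markers were all detected in the RIP table, with a median mean count of 83465, against medians of 14.1, 11.4 and 39.5 for fibroblast, leukocyte and endothelial markers. Of the leukocyte markers LYZ was abundant, with a mean of 7192 RPM in siCtrl2, 2206 in GFP ASO and 11609 in siCtrl input libraries.

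The junction reads were first used to ask how much ribosomal protein mRNA each library held. Reads over the events of a gene were summed and given in RPM, a relative amount: fewer transcripts of a gene and more of other RNA cannot be told apart. Reads are counted again where events overlap, and reads of members with near-identical pseudogenes are uncertain. Members held 7.09%, 7.43% and 7.53% of the junction reads in the GFP ASO libraries and 5.61%, 5.35% and 5.43% in the U3 ASO libraries. The shares were 8.64%, 7.85% and 8.74% in siCtrl2 and 7.62%, 7.52% and 7.53% in siFUBP1 libraries. They were 4.28% and 4.40% in siCtrl input and 3.48% and 3.37% in siFBL input. The groups did not overlap in any of the 3 comparisons, and the share was lower in each depletion.

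**Figure D1:**
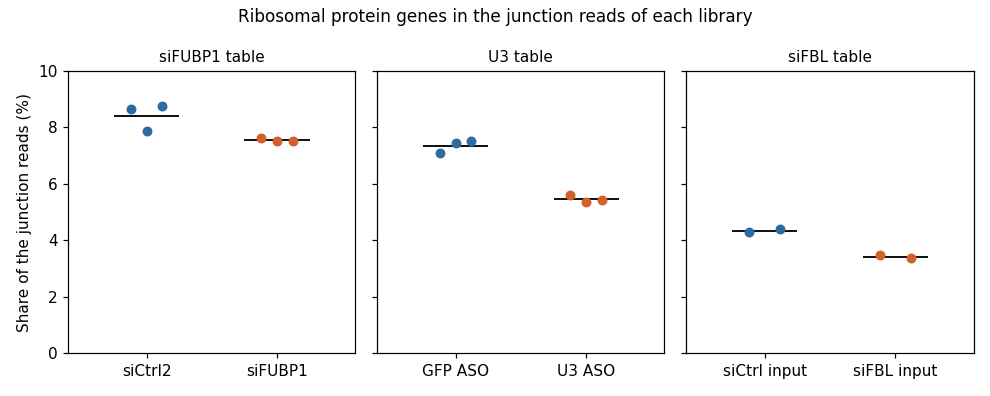
Percentage of all junction reads that fell on ribosomal protein genes, 1 point per library and a line at the group mean, for the siFUBP1, U3 and FBL tables. The 3 U3 ASO libraries sit between 5.35% and 5.61%, below the GFP ASO libraries at 7.09% to 7.53%.

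After U3 depletion, ribosomal protein genes fell almost without exception. Of the 48 members tested, 45 fell and 0 rose at an adjusted p under 0.1 (limma with a variance trend, Benjamini-Hochberg over 8548 genes), where 10.4% of all genes fell and 36.8% rose. The median change of members was -0.44 on the log2 scale, while the median over all genes was 0.27. RPL36, with the smallest change that passed (-0.14, adjusted p = 0.096), lost its call in 5 of the 6 fits without 1 library. Both subunits took part: 29 of 30 large subunit and 16 of 18 small subunit genes fell, with medians of -0.45 and -0.42.

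The members with the largest changes that passed lay well outside the spread between libraries. RPL31, a large subunit protein at the exit of the peptide tunnel, had 590.1, 682 and 588 RPM with GFP ASO and 366, 337 and 381 with U3 ASO. It fell by 0.78 on the log2 scale (SE 0.071, adjusted p = 7.5e-08), and every U3 ASO library lay below every control. RPL3, which lies near the peptidyl transferase center, went from 623, 614 and 587 to 353, 354 and 377 RPM. RPL10A, the protein of the L1 stalk beside the tRNA exit site, had 282, 276 and 273 RPM in controls and 178, 156 and 172 after U3 ASO. Both genes lost about as much as RPL31, with changes of -0.75 (SE 0.061) and -0.71 (SE 0.078) and no overlap between groups. The zinc-binding small subunit protein RPS29 changed by -0.65 (SE 0.095) and the large subunit protein RPL29 by -0.64 (SE 0.069). The most abundant member by junction reads, RPL13A, fell from 7381, 7537 and 8184 to 5145, 5313 and 4967 RPM, a change of -0.58 (SE 0.041).

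Members with special roles were looked at by group. The 4 genes of the P stalk, the arm of the large subunit that recruits translation factors, all fell: RPLP0, RPLP1, RPLP2 and RPL12 had changes between -0.41 and -0.31. RPL5 and RPL11, which travel with 5S ribosomal RNA and bind MDM2 when ribosome assembly fails, fell by 0.51 (SE 0.045) and 0.36 (SE 0.061). From a chosen list of 10 Diamond-Blackfan anemia genes, which is not a full set, 5 were tested. Of these 4 fell (RPL5, RPL11, RPL26 and RPS24), and RPS19, the most often mutated of them, did not pass the test. RPS19 had 1041, 1163 and 1160 RPM in controls and 1109, 1038 and 1065 after U3 ASO, a change of -0.07 (SE 0.054) with overlapping groups. The others that did not pass were RPL24, at -0.08 (SE 0.062), and RPS9, which had at most 4.02 RPM in any library and a change of -0.88 (SE 0.71).

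Members fell with and without a hosted snoRNA, and with and without a TOP run at the annotated RefSeq start. All 20 tested members that host an intronic snoRNA fell, with a median of -0.45, and 25 of the 28 that host none, with a median of -0.41. Of members with a TOP run at the annotated start 27 of 30 fell, and of those without one 8 of 8. This class rests on the annotated start base alone, taken at the listed start with the longest run. An mRNA whose start is annotated a few bases away can count as lacking the run. Members with no listed start were in neither class. The differences between these subsets were not tested.

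Genes outside the family gave the setting. Among 17 other mRNAs known for TOP starts (translation factors such as EEF2 and EIF4B), 10 fell and 2 rose, with a median of -0.31. The wider set of genes outside the family with a TOP start in RefSeq moved much like all genes. Of 508 tested, 165 rose and 58 fell (11.4%), with a median of 0.21. Of all 8548 genes 36.8% rose and 10.4% fell, with a median of 0.27. Of 19 ribosome assembly factors, 10 rose and 2 fell, with a median of 0.45. Among the risers were EIF6, which keeps the subunits apart, SBDS, which releases it, and the small subunit factors LTV1, NOB1 and RIOK1, and the 2 that fell were NCL and NOP56. Abundance moved with the change over all genes: of 96 other genes with 1000 or more RPM in controls, 62 fell (64.6%) with a median of -0.24, and of 1571 with 100 to 1000, 301 fell (19.2%) with a median of 0.14. Members in the same 2 ranges had medians of -0.41 (20 of 21 fell) and -0.45 (24 of 25 fell). Of 11 hepatocyte markers, 7 fell and 3 rose (APOA2, HNF4A and TTR). The part of abundance in the members' change was not tested.

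**Figure D2:**
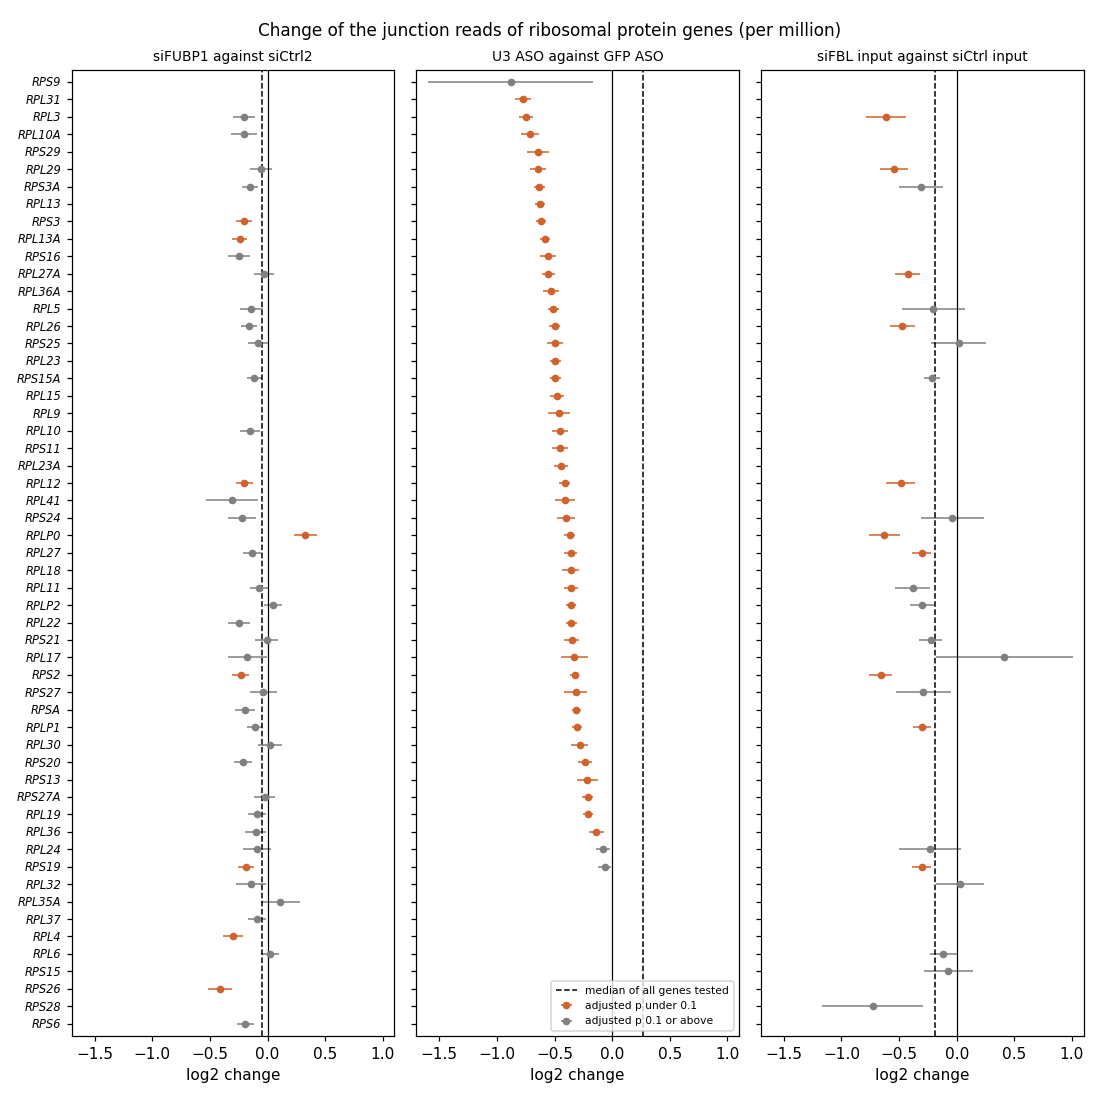
Log2 change of RPM for the ribosomal protein genes named here with an event in the 3 tables, ordered by the change under U3 ASO, with bars of 1 standard error, orange points for an adjusted p under 0.1 and a dashed line at the median of all genes. The 46 members drawn for U3 ASO all lie below 0, while the all-gene median lies at 0.27.

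FUBP1 depletion left most members within the spread between libraries. At an adjusted p under 0.1, 7 of 43 members fell and 1 rose, where 6.48% of 6432 genes fell and 5.74% rose, and the members' median was -0.14 against -0.05 for all genes. At 1000 RPM or more in controls, 6 of 25 members fell and 0 rose, while 21 of 93 other genes fell (22.6%) and 11 rose. The members' share of called falls was thus near that of genes of like abundance. In direction they differed: 23 of these 25 members had a change below 0, against 51 of the 93 other genes. The medians were -0.14 and -0.04. Of 10 hepatocyte markers 4 fell, FGG furthest at -1.13 (SE 0.073), and 1 rose, APOB at 0.41 (SE 0.072). RPS26, a small subunit protein at the mRNA exit channel and another Diamond-Blackfan anemia gene, fell furthest, from 496, 456 and 452 to 343, 327 and 386 RPM, a change of -0.41 (SE 0.11, adjusted p = 0.020). The other fallers were RPL4 (-0.30), which reaches into the peptide tunnel, RPL13A (-0.24), RPS2 (-0.23), RPS3 (-0.21), RPL12 (-0.20) and RPS19 (-0.19). RPLP0, the base of the P stalk, rose from 696, 603 and 761 to 836, 852 and 887 RPM, a change of 0.33 (SE 0.096, adjusted p = 0.042). RPL35A, RPLP2, RPL30 and RPL6 had changes between 0.02 and 0.11, and none of them passed the test. RPS16 (-0.25), RPL22 (-0.25) and RPL41 (-0.31) did not pass either. Of 12 other TOP mRNAs on the chosen list 2 were lower (NPM1 and NAP1L1) and 0 higher, and of 398 genes outside the family with a TOP start 30 were lower (7.54%) and 23 higher. Centering each library on its median gene kept RPL13A, RPL4, RPLP0 and RPS26 past the threshold and none of the other 4, and without 1 library the number of calls was 3 to 8, with 3 left without siCtrl2 library 1, siCtrl2 library 3 or siFUBP1 library 3.

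FBL depletion was measured at less depth and with 2 libraries per group. Of 26 members tested, 10 fell and 0 rose, where 2.86% of 3217 genes fell and 0.777% rose. The members' median was -0.30 and the median of all genes was -0.19. At 1000 RPM or more in controls 9 of 15 members fell and 0 rose, while 22 of 97 other genes fell (22.7%) and 13 rose. The abundant APOB rose from 84624 and 85279 to 94131 and 93910 RPM, and AFP, SERPINA1 and LYZ rose as well; the part of these in the members' relative level was not tested. RPS2, a small subunit protein at the mRNA entry channel, fell from 3152 and 3764 to 2133 and 2225 RPM, a change of -0.66 (SE 0.097, adjusted p = 0.00017). RPLP0 went from 1358 and 1445 to 924 and 890 RPM, a change of -0.63 (SE 0.14). RPL3, RPL29, RPL12, RPL26, RPL27A, RPL27, RPS19 and RPLP1 also fell, by 0.30 to 0.61 on the log2 scale. RPS28 had a change of -0.73 (SE 0.44) from overlapping groups, and RPL17, RPL32 and RPS25 had positive changes of 0.41 (SE 0.59), 0.03 (SE 0.21) and 0.02 (SE 0.24), none past the test. Centering left 1 of these calls, RPS2. Leaving out either siFBL library left 0, and leaving out siCtrl input library 1 or 2 left 6 and 3, in fits where the lone library of a group is assumed to vary like the other group. RPLP0 thus rose after siFUBP1 and fell after siFBL and U3 ASO, and the difference between these depletions was not tested. Its control means were 687 RPM in siCtrl2, 1401 in siCtrl input and 6319 in GFP ASO libraries. The events summed for a gene can differ between comparisons, so these changes may not cover the same junctions. On the chosen list of TOP mRNAs EIF4B, NPM1 and TPT1 fell among 10 tested, and of 212 genes outside the family with a TOP start 7 fell (3.30%).

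Exon skipping was then compared within each table. The inclusion level of an event is the share of transcripts that carry the exon, from length-scaled inclusion and skipping reads, on a scale of 0 to 1. Member exons were nearly always included: 93.2%, 93.3% and 80.6% of tested member events had a control level above 0.98 in the siFUBP1, U3 and FBL tables, against 47.4%, 56.3% and 39.7% of all events. Depth was high, with medians of 2716, 6415 and 844 reads per library for member events and 60.0, 125 and 39.8 for all events. Of the distinct events, 107 concerned an exon of the canonical transcript, and 116 of 117 exons had the same ends as a GENCODE exon. Exons measured 22 to 246 bases, and 49 had a length divisible by 3.

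The quasi-binomial test called 1 member event in all. It was called among 90 tested after U3 ASO, where 0.203% of 30110 events were called. With siFUBP1 0 of 73 member events were called, where 0.197% of 16213 events were, and with siFBL 0 of 31, where 0 of 5218 (0%) were. At an unadjusted p under 0.05 the member counts were 5 for U3, 1 for siFUBP1 and 0 for siFBL, against 963 of 30110, 632 of 16213 and 100 of 5218 events in all, and limma on the log2 odds called 0 member events in every table. The groups did not overlap in 7 member events after U3 ASO, 5 after siFUBP1 and 6 after siFBL, where 6.28%, 5.32% and 15.8% of all tested events did not. The change of inclusion was under 0.01 in size for 87 of the 90 member events after U3 ASO, for 66 of 73 after siFUBP1 and for 26 of 31 after siFBL, where 32.9%, 24.1% and 11.6% of all events changed so little.

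The called event was the 22-base exon of RPS24 printed above. Its inclusion level was 0.337, 0.282 and 0.282 with GFP ASO and 0.180, 0.177 and 0.139 with U3 ASO. The groups stood clear of each other, with means of 0.300 ± 0.032 and 0.166 ± 0.023 (SD, n = 3). Inclusion fell by 0.135 (adjusted p = 0.0010, quasi-binomial test). That p-value rests on the dispersion over all events, not on the spread of this exon between its libraries. The skipping reads were 722, 861 and 755 in controls and 540, 497 and 828 after U3 ASO, and the inclusion reads fell from 421, 388 and 341 to 136, 123 and 154. The call was kept without any 1 of the other 5 libraries (adjusted p between 0.0015 and 0.031) but not without U3 ASO library 3 (adjusted p = 0.40), although inclusion still fell by 0.122. No form of limma on the log2 odds called it (adjusted p between 0.82 and 0.87). A 25-base form of the exon, which starts 3 bases upstream, was rare, with 16, 13 and 2 inclusion reads in controls and 6, 2 and 0 after U3 ASO.

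The same exon was less included in the 2 other depletions, without passing the test over all events. After siFUBP1 its level went from 0.179, 0.197 and 0.227 to 0.143, 0.143 and 0.137, with no overlap between groups (unadjusted p = 0.018, adjusted p = 0.83, quasi-binomial test over all events). After siFBL it went from 0.252 and 0.213 to 0.166 and 0.209, the highest depleted library lying just under the lowest control (adjusted p = 0.89, same test). The 3 controls themselves stood at means of 0.201, 0.300 and 0.232 in separate experiments. Whether the depletions differ in size was not tested. FUBP1 junction reads were also lower in the U3 ASO libraries, at 43.4, 42.6 and 38.7 RPM against 64.0, 58.7 and 56.9 with GFP ASO (adjusted p = 0.0044, limma), and their part in the RPS24 change was not tested.

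**Figure D3:**
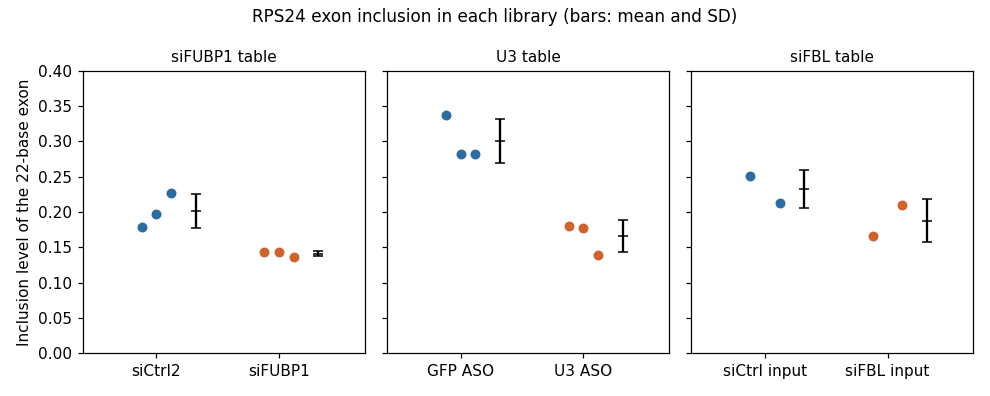
Inclusion level of the 22-base RPS24 exon on a scale from 0, 1 point per library, with the group mean and SD beside the points, in the siFUBP1, U3 and FBL tables. The U3 ASO libraries lie between 0.139 and 0.180 and the GFP ASO libraries between 0.282 and 0.337.

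Other member events gave small or unstable differences. The 186-base exon of RPLP0 (chr12:120198554-120198739) had levels of 0.979, 0.986 and 0.983 with GFP ASO and 0.994, 0.989 and 0.987 with U3 ASO (unadjusted p = 0.012, adjusted p = 0.87, quasi-binomial test over all events). The 96-base exon of RPS25 (chr11:119017958-119018053) stood at 0.998 in every control and at 0.996, 0.996 and 0.976 after U3 ASO. The 172-base exon of RPS9 reached 0.828 in 1 GFP ASO library and 0 in the other 5, on a mean of 13.2 reads per library. The smallest p of a member event in the FBL table was 0.209 (RPS2, unadjusted, quasi-binomial test over all events). Exons that were mostly skipped were a 98-base exon of RPL17 (mean control levels of 0.025 to 0.15 in its event with the most reads) and a 121-base exon of RPS27 (0.022 to 0.044). Neither lies in the canonical transcript, and neither was called. Of 24 member events tested in all 3 tables, 4 had lower inclusion in every depletion (in RPL27, RPS24, RPS25 and RPS3A) and 3 higher (in RPL17, RPLP0 and RPS2), and apart from RPS24 and RPL17 no change among these exceeded 0.0207 in size.

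The RIP experiment compared the level of each mRNA in the RNA bound to FUBP1 with its level in input. The deposited enrichment is the log2 ratio of RIP over input by DESeq2, fitted by the authors for each condition with its standard error. Counts were normalized, so it is relative to other RNAs and does not give the part of an mRNA that was recovered. RIP with a control antibody was not analysed here. Of the 81 members 78 were kept, and the testis and muscle paralogues RPL10L, RPL39L and RPL3L did not reach a mean count of 10 in both conditions. In siCtrl cells 73 of 78 members had a 95% interval of the enrichment below 0, which is below input, and 0 had one above, where 37.9% of 14242 genes lay below and 40.1% above. In siFBL cells 76 lay below and 0 above, where 36.4% and 38.8% of genes did. The members' median enrichment was -2.01 in siCtrl, against 0.08 for all genes. The 945 other protein-coding genes with transcripts under 1500 bases and genes under 10000 bases had a median of -2.31, and 73.1% lay below input. All 12 hepatocyte markers also lay below input, with a median of -1.49. A low enrichment was therefore not particular to the members.

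Members differed widely among themselves. RPL36 was lowest at -3.97 (SE 0.11), or 6.40% of its normalized level in input, and RPL29 (-3.52) and RPS10 (-3.49) were also among the lowest. RPS27L was highest at 0.14 (SE 0.15), followed by RPL5 (-0.07, SE 0.063), RPS24 (-0.13, SE 0.10), RPL22 (-0.21, SE 0.083) and RPL37 (-0.30, SE 0.072). The intervals of RPS27L, RPL5 and RPS24 overlapped, so their order is not resolved. RPS9 had a wide interval in siCtrl, with a standard error of 0.71, and like those 3 it was not below input. By role, the 14 proteins of the head of the small subunit had a median of -2.97 and the 4 P stalk proteins of -2.78, while the 8 proteins at the exit tunnel had -1.10. RPL5 and RPL11, partners in the 5S particle, stood far apart at -0.07 and -2.41. The 28 members that host a snoRNA in an intron had a median of -2.04 and the other 50 of -1.94, whereas 176 host genes outside the family had 0.49.

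**Figure D4:**
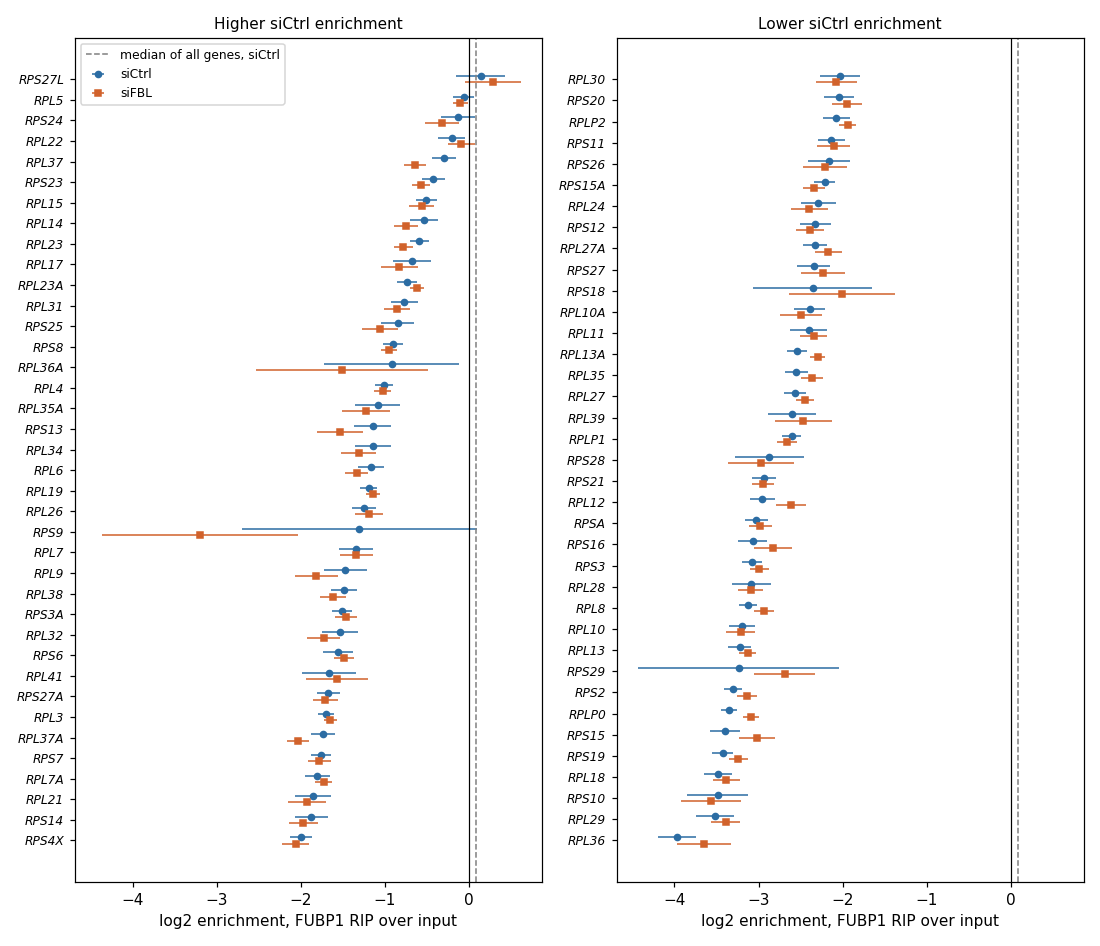
Log2 enrichment of FUBP1 RIP over input for 75 of the 78 members kept, ordered by the siCtrl value, for siCtrl (circles) and siFBL (squares), with bars for the 95% interval and a dashed line at the median of all genes in siCtrl (0.08). RPS27L at 0.14 is the highest and RPL36 at -3.97 the lowest.

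Base composition went along with the enrichment, in members and in all genes, and gene size did so more weakly. Across the 78 members the Spearman correlation of siCtrl enrichment with the GC content of the canonical transcript was -0.70, and with its U content 0.45. Across 12413 protein-coding genes the values were -0.80 and 0.76. The correlation with transcript length was 0.22 in members and 0.40 in these genes, and with gene length 0.33 and 0.44. Genes are not independent replicates, and all points share the same libraries, so these are descriptions. The median GC content was 47.6% in members and 48.2% in all protein-coding genes, while median transcripts measured 827 and 3443 bases and median genes 4486 and 28899 bases. At a GC content of 40 to 45% the median enrichment was -1.09 in 23 members, 1.27 in 2635 other protein-coding genes and 0.76 in the 82 of these with transcripts under 1500 bases and genes under 10000 bases. At 45 to 50% the medians were -2.02, 0.29 and -0.56. At 50 to 55% they were -2.71, -0.89 and -2.01, and at 55 to 60% they were -3.31, -1.96 and -2.72. The members' median was the lowest of the 3 in each range, and its distance from that of short genes was smaller where GC was high. The abundance of members and the part of composition and length in these values were not tested.

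**Figure D5:**
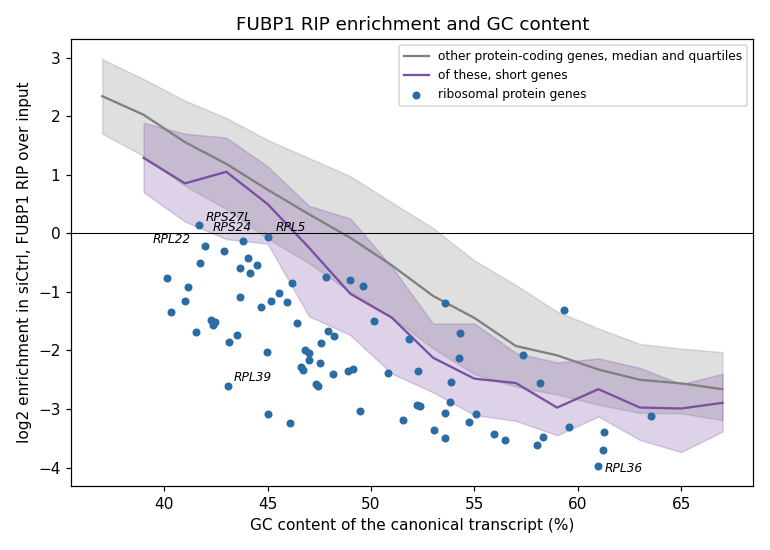
Log2 enrichment of FUBP1 RIP over input in siCtrl against the GC content of the canonical transcript (%), with 1 point per member and lines and bands for the median and quartiles of other protein-coding genes and of short ones among them, in bins with at least 20 genes. At 40 to 45% GC the members' median is -1.09 and that of other genes is 1.27.

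FBL depletion hardly moved the members' enrichment. Their median difference, siFBL minus siCtrl, was -0.01. By a Wald test of the difference, adjusted over all 14242 genes, 2 of 78 members were lower and 4 higher after siFBL, where 6.64% of genes were lower and 5.36% higher, so the members' counts were near or under the background. The 2 lower were RPL37 (-0.30 to -0.64) and RPL37A (-1.73 to -2.04), the zinc-binding proteins of the large subunit. The 4 higher were RPS15 (-3.40 to -3.01), RPL12 (-2.95 to -2.61), RPLP0 (-3.35 to -3.09) and RPL13A (-2.55 to -2.30). The junction reads of the FBL comparison came from the input libraries over which the enrichment is taken, so these results are not independent. There RPLP0 (-0.63) and RPL12 (-0.48) fell, RPS15 (-0.08) did not pass the test and RPL13A was not tested. The largest difference in size came with a wide error, RPS9 at -1.89 (SE 0.93), and did not pass the test. RPL36A (-0.59), RPS13 (-0.39), RPL9 (-0.35), RPS29 (0.55), RPS18 (0.35) and RPL36 (0.32) did not pass either. RPS24, whose exon is described above, had -0.13 and -0.32, a difference of -0.19 (SE 0.15).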

How the data were processed

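RNA of HepG2 cells had been sequenced from a stranded total RNA kit (the labels give polyadenylated RNA as the molecule). According to the labels and methods, the authors trimmed adapters with Cutadapt, aligned reads to hg38 with HISAT2, counted skipped exon events with rMATS from junction reads, counted genes with HTSeq (featureCounts is also named in the processing notes) and compared RIP with input by DESeq2. Versions and removal of duplicate reads are not given in the sources used here. The deposited event tables list whole junction reads, with 1 number per library and event. The deposited RIP table gives the log2 enrichment with its standard error and, as a score, the mean normalized count of each condition. The enrichment was used because it is the readout of the assay. The authors' p-values, FDR, test statistics and inclusion level differences were not used, nor were 6 columns of inclusion levels per library. List positions name the libraries.

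Members and gene lists were chosen with earlier results of these data known. Skipped exons averaging 10 or more junction reads a library entered a quasi-binomial model of inclusion and skipping reads. Its dispersion was moderated across all events with limma 3.58.1 (R 4.3.3), with a trend on the information in an event. The prior was so strong that the trend alone set the dispersion. The spread of an event's own libraries did not enter its p-value. Junction reads per gene were tested with limma on log2(RPM + 0.5), where RPM is junction reads per 1000000 of the library, with a variance trend. Both were two-sided, adjusted by Benjamini-Hochberg over the whole table and called under 0.1. The RIP table was limited to genes whose mean count reached 10 in both conditions and whose enrichment was not 0, and conditions were compared with a two-sided Wald test on the summed squared errors, adjusted likewise. Both models were tested on simulated data. For events the simulated spread was set in advance, not fitted to the data. That run does not show how the event test behaves at the spread seen here. Named were member events and genes called, the 6 member events with the smallest p per table, those in all tables, mostly skipped ones, the 5 largest changes of junction reads each way, and the 5 highest and lowest RIP values and differences. Transcript features came from GENCODE release 44 (hg38) and start sites from RefSeq (GRCh38.p14). AG stood just before 99.8% of the exons of the U3 table in hg38. Python 3.11.15 with pandas 2.3.3 and scipy 1.17.1 was used. Replicates of a group differed by more than sampling noise. A few members enter the counts and medians but are not reported here by name.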

Additional observations from a re-analysis of the deposited data

Results flagged for a closer look

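The FUBP1 enrichment of 6 members differed between siCtrl and siFBL cells by the Wald test of the difference, a normal test on 2 RIP and 2 input libraries per condition. These were 6 of 78 members, 2 lower and 4 higher, where 6.64% of all genes were lower and 5.36% higher, so the count was not above the background. After FBL depletion RPL37 was lower by -0.35 on the log2 scale (SE 0.098, adjusted p = 0.0084) and RPL37A by -0.30 (SE 0.098, adjusted p = 0.028). RPS15 was higher by 0.39 (SE 0.14, adjusted p = 0.061), RPL12 by 0.34 (SE 0.12, adjusted p = 0.043), RPLP0 by 0.26 (SE 0.071, adjusted p = 0.0051) and RPL13A by 0.25 (SE 0.074, adjusted p = 0.013). The GC content of the transcripts that came out lower was 42.9% and 43.5%, and that of the 4 higher ones ran from 52.4% to 61.3%. Over 12413 protein-coding genes the Spearman correlation of the difference with GC content was 0.41, and over the 78 members it was 0.48. The part of composition in these 6 differences was not tested.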

How the results depend on the processing

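No paired analysis was possible because the lists of junction reads carry no replicate number and the RIP table pools libraries. For members with changed junction reads after siFUBP1 (8), the count was 5 with no filter on low reads, 4 after centering on the median gene and 3 to 8 without single libraries. After U3 ASO it stayed at 42 to 47 in every alternative. After siFBL (10) it was 1 after centering and 0 to 6 without single libraries, where 1 group keeps a lone library. The RPS24 event after U3 ASO was called in 0 of 3 forms of limma on the log2 odds (0.5 or 1 added, with or without trend) and in 0 to 1 events without single libraries. Counts of RIP members were the same with a minimum of 50, with no filter and after centering. The changes that follow turned sign in some alternative, and none was called. Without single libraries, changes of junction reads after siFUBP1 ran from -0.056 to 0.085 for RPL30, from -0.031 to 0.064 for RPL6 and from -0.0021 to 0.069 for RPLP2. After siFBL they ran from -0.23 to 0.28 for RPL32 and from -0.17 to 0.20 for RPS25. The cause was not tested. The FBL table had the fewest junction reads and the fewest libraries per group. Junction reads follow a gene only where it has a listed skipped exon.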
